A study of Bos taurus with 12 samples.

Results

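The sarcomeric myosin heavy chain genes MYH1, MYH2, MYH3, MYH7 and MYH8 were followed through the differentiation of bovine myoblasts into myotubes. They were chosen by gene name and make up 5 of the 18436 genes in the expression table. Entries carrying their names make up 15 of the 19739 m6A peaks of the GM list and 11 of the 20790 of the DM list. The cells were primary myoblasts taken by the study from the longissimus dorsi muscle of a newborn Qinchuan animal. GM denotes proliferating cells at 80% confluence in growth medium with 20% fetal bovine serum, and DM denotes myotubes after 4 days in differentiation medium with 2% horse serum, labelled as 100% confluent. Each state had 3 input libraries, which give expression, and 3 libraries of RNA immunoprecipitated with an antibody to m6A, 12 libraries in all. Cells of both states shared their source, so p-values measure the spread between these cultures and not between animals.

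A myosin heavy chain is the motor subunit of the thick filament: its head binds actin and splits ATP, and its long coiled-coil tail packs with other tails into the filament. Mammals express different heavy chain genes in sequence as muscle forms, with embryonic (MYH3) and perinatal (MYH8) chains before the adult fast chains (MYH2 of type IIa and MYH1 of type IIx fibres), while MYH7 is the chain of slow fibres and of the heart ventricle. MYH3, MYH8, MYH2 and MYH1 lie in a cluster with MYH4 and MYH13, and MYH7 lies beside MYH6, the atrial chain. N6-methyladenosine (m6A) is a methyl mark on adenosines within mRNA, found mostly in long exons and near the stop codon.

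In the ARS-UCD1.2 build, MYH8 (chr19:29403330-29433093), MYH1 (chr19:29483027-29507056), MYH2 (chr19:29510066-29536488) and MYH3 (chr19:29601526-29622481) are on the minus strand, and MYH7 (chr10:21490410-21510517) is on the plus strand. Their identifiers in the table are ENSBTAG00000009702 for MYH8, ENSBTAG00000018204 for MYH1, ENSBTAG00000007090 for MYH2, ENSBTAG00000011803 for MYH3 and ENSBTAG00000009703 for MYH7. MYH3 was the member the study also measured by RT-qPCR, as a marker of differentiation. The pair of primers designed for it, each 20 bases long, is shown because it is the sequence by which the embryonic chain was tracked outside sequencing.
MYH3 forward: tgaacgccctctccaaatcc
MYH3 reverse: aatgaagtgctgtctcggca

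All 5 members were higher in every DM library than in any GM library, as were 21.1% of all tested genes. Of the 5, MYH1 was too low to be tested and MYH2 was tested only through its DM level. MYH3 held most of their summed level in both states. The values are FPKM, fragment counts scaled by exon length and by the mapped reads of the library, so levels of different genes can be set side by side. The depth behind them is not given by the files, and an FPKM carries no counting error. The members are similar in sequence, and how reads shared between them were divided cannot be seen in the values.

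MYH3, the embryonic chain, stood at 275, 274 and 270 FPKM in the 3 GM libraries and at 666, 670 and 642 FPKM in the 3 DM libraries. The lowest DM library lay far above the highest GM library. The mean went from 273.0 ± 2.74 to 659 ± 15.0 FPKM (SD, n = 3 each), 2.42-fold, and MYH3 moved from rank 238 to rank 92 among all genes. Its log2 fold change of FPKM + 1 was 1.27 ± 0.0456 (SE), with a limma adjusted p of 5.04e-07. On this log2(FPKM + 1) scale the change of low genes is understated.

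MYH8, the perinatal chain, was at 0.638, 0.436 and 0.486 FPKM in GM and at 4.00, 4.09 and 4.10 FPKM in DM. The 3 DM libraries were nearly alike and none approached the GM range. The means, 0.520 ± 0.105 and 4.06 ± 0.0544 FPKM (SD, n = 3 each), differ 7.81-fold, and the log2 fold change was 1.74 ± 0.0766 (SE; limma adjusted p of 1.36e-06). Its rank among all genes went from 12250 to 8335.

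MYH2, the type IIa fast chain, was at 0.203, 0.172 and 0.106 FPKM in GM and at 1.57, 1.34 and 1.59 FPKM in DM. The groups did not overlap, and the GM values were below the 0.5 FPKM used as the filter on the mean of the 6 libraries. MYH2 therefore entered the test only through its DM libraries. Its means were 0.160 ± 0.0496 and 1.502 ± 0.138 FPKM (SD, n = 3 each), 9.37-fold apart, with a log2 fold change of 1.11 ± 0.0839 (SE; limma adjusted p of 2.39e-05).

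MYH1, the type IIx fast chain, was listed at 0 in all 3 GM libraries and at 0.211, 0.0292 and 0.128 FPKM in DM. Its level stayed below the filter and it was not tested. None of 11 housekeeping genes was listed at 0 in any library. The lowest of them, TBP, had a minimum of 8.15 FPKM, so they cannot show how reliable a 0 is at the level of MYH1.

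MYH7, the slow chain, was at 12.96, 12.92 and 12.54 FPKM in GM and at 29.3, 16.8 and 27.5 FPKM in DM. All DM libraries were above all GM libraries, but DM library 2 lay nearer to GM than to the other DM libraries. The means were 12.8 ± 0.230 and 24.5 ± 6.73 FPKM (SD, n = 3 each), 1.92-fold apart, with a log2 fold change of 0.85 ± 0.177 (SE; limma adjusted p of 0.00544). Without DM library 2 the log2 fold change was 1.09.

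MYH3, MYH7 and MYH8 were called higher in DM, as was MYH2, whose call is no support because it was tested only through its DM level. A call needs p below 0.05 before adjustment together with more than 1.5-fold. Of the 12302 genes tested, 11.9% were called by this rule, 4.9% higher and 6.97% lower. By p below 0.05 alone, 50.7% of them passed, 19.3% higher and 31.4% lower, and in 21.1% every DM library was above every GM library. Of the genes called by p and fold together, 41.3% were higher in DM, and 54.5% after scaling to TPM, under which the members were called in the same direction. In bulk RNA, more cells of a type and more RNA per cell cannot be told apart.

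**Figure D1:**
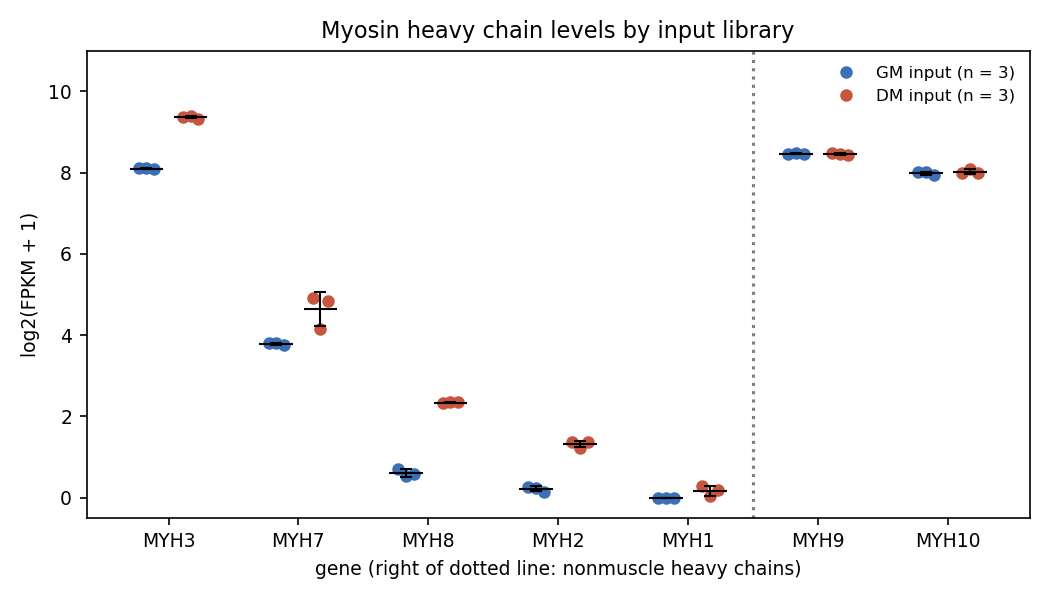
FPKM of the 5 members and of the nonmuscle chains MYH9 and MYH10 in each input library, as log2(FPKM + 1). Points are libraries (n = 3 per group), and bars are the mean ± SD. All DM points of the 5 members lie above their GM points, as in 21.1% of all tested genes. Those of MYH9 and MYH10 overlap.

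In both states the order of levels was MYH3, MYH7, MYH8, MYH2 and MYH1. Neighbours in this order did not overlap in FPKM in any pair of libraries of the same state. The members summed to 286 ± 3.06 FPKM in GM and 690 ± 12.9 FPKM in DM (SD, n = 3 each), 2.41-fold higher. MYH9 and MYH10, the nonmuscle heavy chains of the cytoskeleton, together stood at 597 to 614 FPKM in GM and 601 to 623 FPKM in DM. MYH3 was thus 0.447 to 0.452 of their sum in GM and 1.07 to 1.09 of it in DM.

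As a share of the summed member FPKM, MYH3 took 95.3% ± 0.0687 in GM and 95.6% ± 1.01 in DM (SD, n = 3 each). MYH7 took 4.49, 4.49 and 4.43% in the GM libraries and 4.18, 2.43 and 4.07% in the DM libraries, so every DM share was lower. The share of MYH8 went from 0.181 to 0.589% and that of MYH2 from 0.0558 to 0.218%, without overlap. An exact two-sided permutation test of the difference in share gave p = 0.1 for MYH7, MYH8, MYH2 and MYH1 and p = 1 for MYH3, with 0.125 after adjustment over the 5 members for the former. The smallest p that 3 against 3 libraries allow is 0.1, so this design could not pass 0.05.

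**Figure D2:**
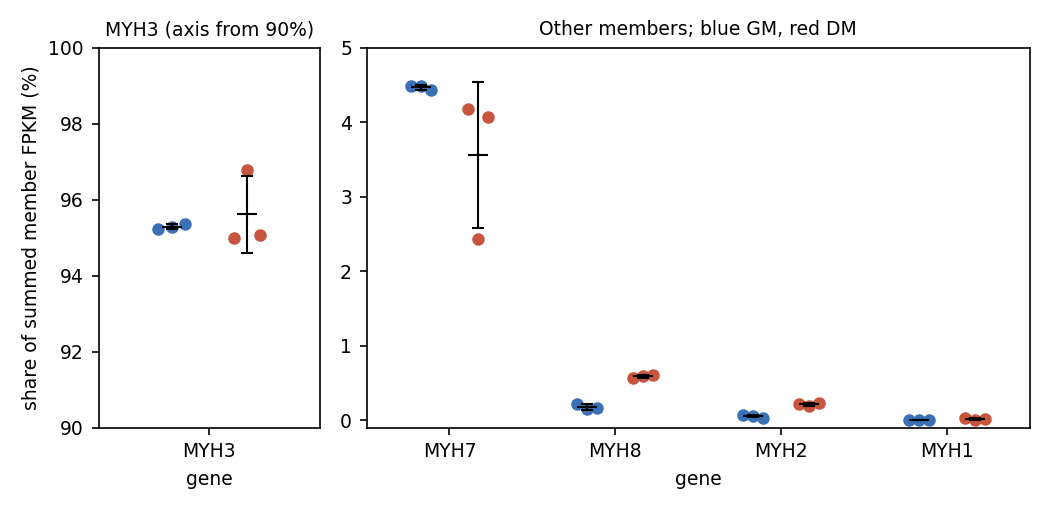
Share of each member in the summed FPKM of the 5 members, in percent, in each input library. Blue points are GM and red points are DM libraries (n = 3 each), bars are the mean ± SD, and the MYH3 axis starts at 90%; the MYH7 point of DM library 2, at 2.43%, lies apart from the other DM points.

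DM library 2 held 16.8 FPKM of MYH7, 59.3% of the mean of 28.4 FPKM in DM libraries 1 and 3. MYH6, the atrial chain that neighbours MYH7, was also lower there, at 0.481 FPKM or 56.9% of the mean of the other DM libraries. The ratio of MYH3 to MYH7 was 21.2 to 21.5 in the GM libraries, 22.7 and 23.4 in DM libraries 1 and 3, and 39.8 in DM library 2. Genes as low in 1 DM library relative to the next lowest numbered 102 for library 1, 115 for library 2 and 66 for library 3 of 12302, a comparison chosen after the MYH7 values were seen. The cause of the low value was not tested.

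The genes nearest to each member over the 6 input libraries were named by the smallest Euclidean distance of centred log2(FPKM + 1). For MYH3 these were ABCA6, SYNJ2 and RYR1, the calcium release channel of skeletal muscle, at distances of 0.0410, 0.0700 and 0.0992. For MYH8 they were TTR, GFPT2 and HMGCS1 (0.142, 0.190 and 0.194). For MYH2 they were PKIA, JPH1 and ERBB3 (0.0610, 0.125 and 0.136). MYH7 had no such near neighbour: STEAP2 and RF01957, the closest, lay at 0.271 and 0.308. This scale understates the change of low genes, so a small distance does not mean an equal fold. MYH2 rose 9.37-fold in mean FPKM, while PKIA went from 7.34 to 16.7 FPKM. MYH3 rose 2.42-fold, while SYNJ2 went from 1.17 to 4.30 FPKM.

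The other sarcomeric heavy chains were low in both states. MYH6 averaged 0.455 FPKM in GM and 0.724 FPKM in DM, with overlapping libraries and a log2 difference of 0.24 (limma adjusted p of 0.11). MYH4, the type IIb chain, was listed at 0 in all libraries but DM library 1, where it was 0.0668 FPKM. MYH7B and MYH13 averaged under 0.05 FPKM in either state, and MYH15 averaged 0.130 FPKM in GM and 0.0205 FPKM in DM. MYH9 averaged 353 and 352 FPKM and MYH10 253 and 260 FPKM in GM and DM, and neither was called. The smooth muscle chain MYH11 averaged 0.282 and 0.529 FPKM and MYH14 averaged 0.0172 and 0.0580 FPKM.

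The light chains, which brace the neck of the myosin head, rose in all 5 of the 5 genes tested of 9 listed. By the same rule 4.9% of all tested genes rose. The median log2 fold change of the light chains was 1.56, against -0.05 over all tested genes. MYL2, the slow regulatory light chain, went from 61.6 to 229 FPKM and MYL1, the fast essential light chain, from 14.4 to 50.0 FPKM. MYL6B went from 304 to 898 FPKM. The embryonic and atrial light chain MYL4 went from 163 to 289 FPKM and MYLPF, the fast regulatory light chain, from 510 to 867 FPKM, and both passed the test.

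Of the partners of the thick filament and of the M-band, which crosslinks filaments at mid-sarcomere, 6 of 11 tested genes rose and 0 fell in the limma test (11 higher and 0 lower at an unadjusted p under 0.05 alone, against 19.3% and 31.4% of all tested genes), with a median log2 fold change of 0.64. MYOM2, an M-band crosslinker, went from 8.06 to 34.2 FPKM and TRIM54 from 2.43 to 12.2 FPKM. MYBPC1, the slow myosin-binding protein C, went from 0.0309 to 1.46 FPKM and MYBPH from 18.4 to 43.0 FPKM. MYBPC1 passed the filter only through its DM libraries, so its call is no support. TRIM55 went from 28.9 to 52.2 FPKM.

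Of 8 chaperones of the myosin head, 1 rose and 0 fell in the limma test, with a median log2 fold change of -0.23. Without the fold threshold, 2 were higher and 5 lower at an unadjusted p under 0.05, against 19.3% and 31.4% of all tested genes. The riser was SMYD1, a muscle methyltransferase that works with UNC45B in myosin assembly, at 3.26 FPKM in GM and 10.5 FPKM in DM. UNC45B itself was at 4.30 and 5.15 FPKM, a log2 difference of 0.21. HSP90AA1 was at 224 and 182 FPKM, a log2 difference of -0.30, short of the 1.5-fold threshold.

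Among 16 tested transcription factors of myosin genes, 3 rose and 3 fell in the limma test, with a median log2 fold change of 0.14. By the same rule 4.9% of all tested genes rose and 6.97% fell. Without the fold threshold, 8 of the 16 were higher and 5 lower at an unadjusted p under 0.05, against 19.3% and 31.4% of all tested genes. MEF2C, which binds muscle gene promoters with the myogenic factors, went from 7.79 to 70.1 FPKM, TBX15 from 9.81 to 18.6 FPKM and MYF6 from 1.73 to 3.89 FPKM. The early myogenic factors MYF5 (11.8 to 2.25 FPKM) and MYOD1 (61.6 to 24.8 FPKM) were among those that fell. MYOG, which drives terminal differentiation, was already at 197 FPKM in GM and at 243 FPKM in DM, a log2 difference of 0.31 that did not reach 1.5-fold.

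**Figure D3:**
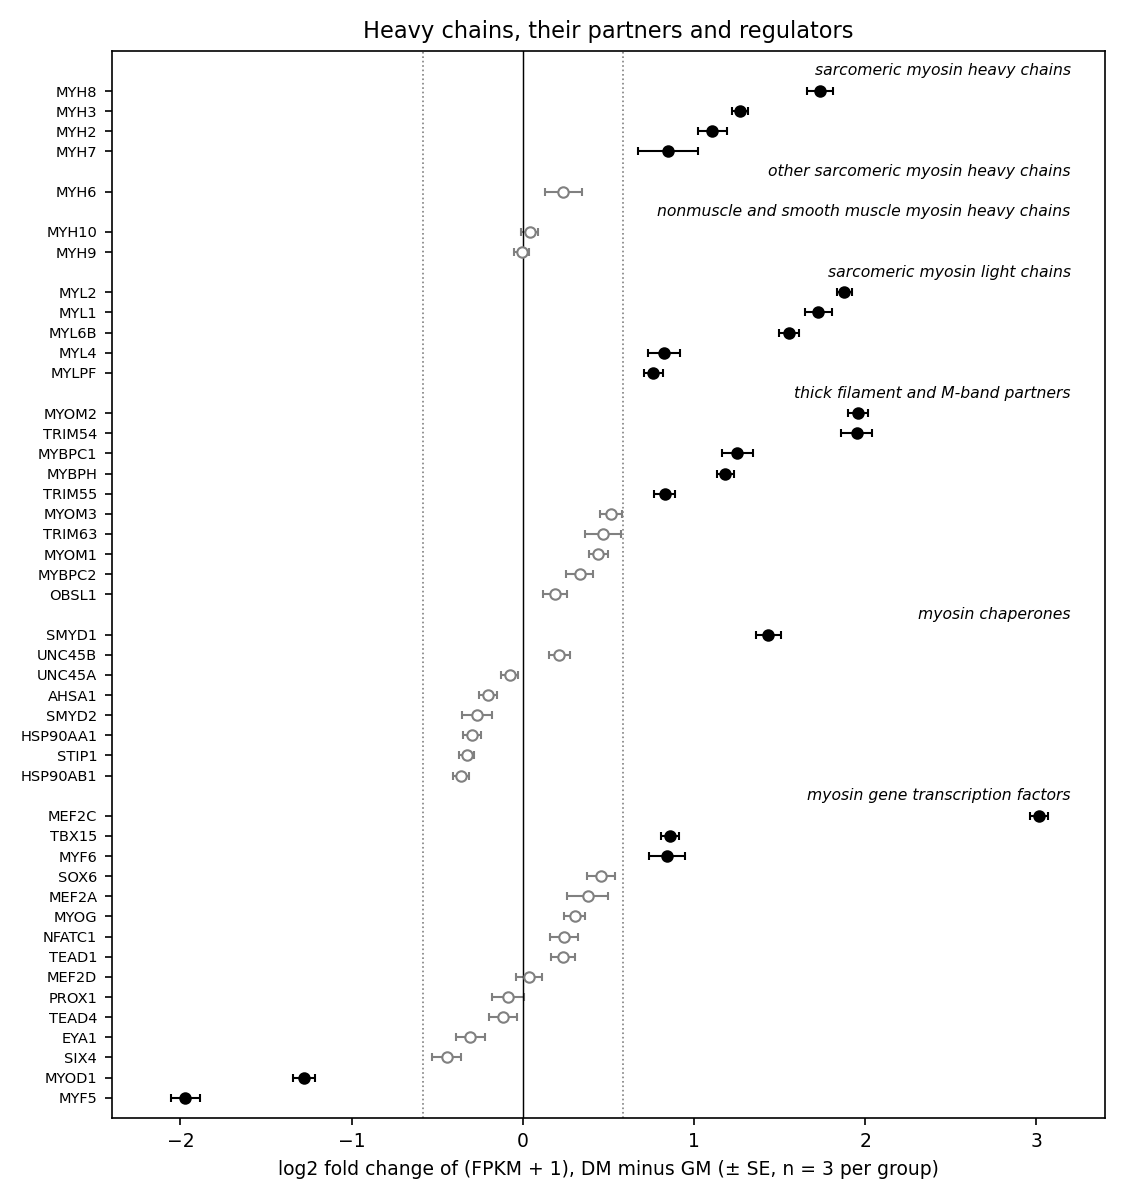
Log2 fold change of FPKM + 1, DM minus GM, for tested members, other heavy chains, light chains, and most of the tested partners, chaperones and transcription factors, with bars for the SE (n = 3 per group). Filled points passed p under 0.05 and a fold over 1.5 (dotted lines); the members and light chains all lie right of the upper line, from 0.76 for MYLPF to 1.88 for MYL2.

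Markers of other cell types were read beside these changes. The 8 fibroblast markers had summed levels of 16030 to 16185 FPKM in GM and 16869 to 17963 FPKM in DM, and limma called 0 of the 8, with 3 higher and 1 lower at an unadjusted p under 0.05 (19.3% and 31.4% of all tested genes). Of 10 myogenic markers, 2 rose (CKM and TNNT1) and 4 fell (PAX7, MYF5, MYOD1 and ACTA1), against 4.9% and 6.97% of all tested genes. At an unadjusted limma p under 0.05 alone, 5 were higher and 4 lower. The sums of the 10 markers were 893 to 984 FPKM in GM and 946 to 1017 FPKM in DM. PAX7, the defining marker of satellite cells, averaged 1.08 FPKM in GM and 0.0624 FPKM in DM. It passed the filter only through its GM libraries, so its call is no support. The smooth muscle list summed to 3087 to 3574 FPKM in GM and 2538 to 2714 FPKM in DM, with 1 of 4 tested genes called lower. All 4 (ACTA2, TAGLN, CNN1 and SMTN) were lower at p below 0.05 alone, as were 31.4% of all tested genes. In each of the 4 the DM libraries lay below the GM libraries, as in 33% of all tested genes. Cardiac markers summed to at most 0.950 FPKM in GM and 1.64 FPKM in DM, and endothelial markers to at most 0.653 FPKM in either state. Immune markers reached 1.94 FPKM with 2 of 5 genes in the table, and adipocyte markers 3.16 FPKM. The part of these cells in the heavy chain values was not tested.

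Beside MYH3 on chromosome 19, the flanking genes SCO1 (12.3 to 9.19 FPKM), ADPRM (3.90 to 3.18 FPKM) and TMEM220 (3.48 to 4.14 FPKM) were not called. Near MYH7, EFS (7.09 to 8.81 FPKM), SLC22A17 (6.25 to 4.82 FPKM), PABPN1 (21.8 to 19.2 FPKM), BCL2L2 (14.7 to 16.1 FPKM), NGDN (9.22 to 10.26 FPKM) and THTPA (4.08 to 4.88 FPKM) were not called either. At an unadjusted limma p under 0.05 alone, EFS was higher and SCO1, ADPRM, SLC22A17 and PABPN1 were lower. None of these reached 1.5-fold, and 50.7% of all tested genes passed p alone. ZFHX2, MIR208B, CMTM5, IL25 and the plus-strand gene ENSBTAG00000053276 stayed below the filter.

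The m6A peaks were called by the study on the pooled libraries of each state, so a peak has 1 fold enrichment of immunoprecipitated over input RNA per state and no replicate error. Peaks by gene name numbered 2 and 5 for MYH1, 5 and 3 for MYH2, 1 and 1 for MYH3, and 7 and 2 for MYH8 in GM and DM. None carried the name of MYH7. A false discovery rate of 0.05 or more was listed for 1 of these peaks in MYH2 in GM and 1 in MYH1 in DM. In each of the 4 named genes, peaks reached the last base of the gene and ended before its 5′ part. From the 3′ end they extended over 42.8 and 42.9% of the genomic span, introns included, in MYH3 and 44.9 and 45.2% in MYH2. In MYH8 they extended over 53.4% in both states and in MYH1 over 62.9% in both states. The covered part of the spliced mRNA was not measured.

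MYH3 had a single long peak of 22 exon blocks in each state, with 3534 exon bases in GM (chr19:29601526-29610484) and 3564 in DM (chr19:29601526-29610514). The median peak held 352 exon bases in GM and 421 in DM. All 3534 GM bases were in the DM peak. The enrichment was 6.54 in GM and 5.46 in DM, a ratio of 0.835, or -0.26 on the log2 scale. The median log2 ratio over the 10239 peaks that met a single peak of the other state was 0.07, and 23.2% of them had a lower ratio than MYH3. A ratio beyond 1.5 in either direction was found for 25.0% of such pairs, higher in DM for 14.2%, and that of MYH3 was not among them.

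In MYH8, 7 GM peaks with 2371 exon bases and enrichment of 2.72 to 15.2, the highest in a peak of 211 bases at the 3′ end, corresponded to 2 DM peaks with 3508 exon bases and enrichment of 4.15 and 7.1. The bases shared by both states were 99.0% of the GM bases and 66.9% of the DM bases. Weighted by exon bases, the enrichment was 5.46 in GM and 5.79 in DM. One GM entry, chr19:29408401-29408579 with an enrichment of 4.79, ends on the last base of the plus-strand gene ENSBTAG00000053276. Its annotation, and that of the entry at chr19:29405556-29408551, cites an exon of that gene, and the lists give peaks no strand of their own.

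In MYH2, 5 GM peaks covered 1976 exon bases and 3 DM peaks 3320. The strongest was a GM peak at chr19:29512042-29512751, with an enrichment of 25.0. The peak farthest from the 3′ end formed a pair across states, with an enrichment of 17.4 in GM (539 exon bases) and 6.92 in DM (868 exon bases), a ratio of 0.398. In 10.8% of all pairs the enrichment was lower in DM by over 1.5-fold. GM levels of MYH2 were at most 0.203 FPKM, and the effect of so little input on the ratio was not tested.

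In MYH1, 2 GM peaks covered 4183 exon bases with enrichment of 3.27 and 5.44, and 5 DM peaks covered 3679 with 3.61 to 13.8. The shared bases were 86.6% of the GM bases and 98.4% of the DM bases. The GM peaks were called although the gene table lists MYH1 at 0 in all GM libraries. Of 942 genes listed at 0 in every GM library, 5.84% had a GM peak, against 59.7% of those above 0.

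Peaks filed under other genes lay within the span of MYH7, found by position after the lists had been seen. In GM, an entry named for MIR208B, a microRNA gene that lies within MYH7, covered 1918 bases in 11 blocks with an enrichment of 3.3. Another, named for ENSBTAG00000049196, a gene listed on the opposite strand, covered 1378 bases in 8 blocks to the last base of MYH7 with an enrichment of 11.8. In DM, a single MIR208B entry of 3564 bases in 20 blocks reached the last base of MYH7 with an enrichment of 12.4 (chr10:21498631-21510517). A further ENSBTAG00000049196 entry lay within the last exons in each state, with an enrichment of 7.37 in GM and 7.04 in DM. In both states its annotation cites exon 32 of 38 of the MYH7 transcript. The annotation of the GM entry named for MIR208B cites exon 20 of that transcript. By position, 3 GM and 2 DM entries lay in MYH7, of which 2 in GM and 1 in DM were filed under the opposite-strand gene, and reads of the 2 strands cannot be told apart in these lists. The DM entry named for MIR208B, a plus-strand gene like MYH7, extended over 59.1% of the genomic span of MYH7 from its 3′ end, introns included.

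**Figure D4:**
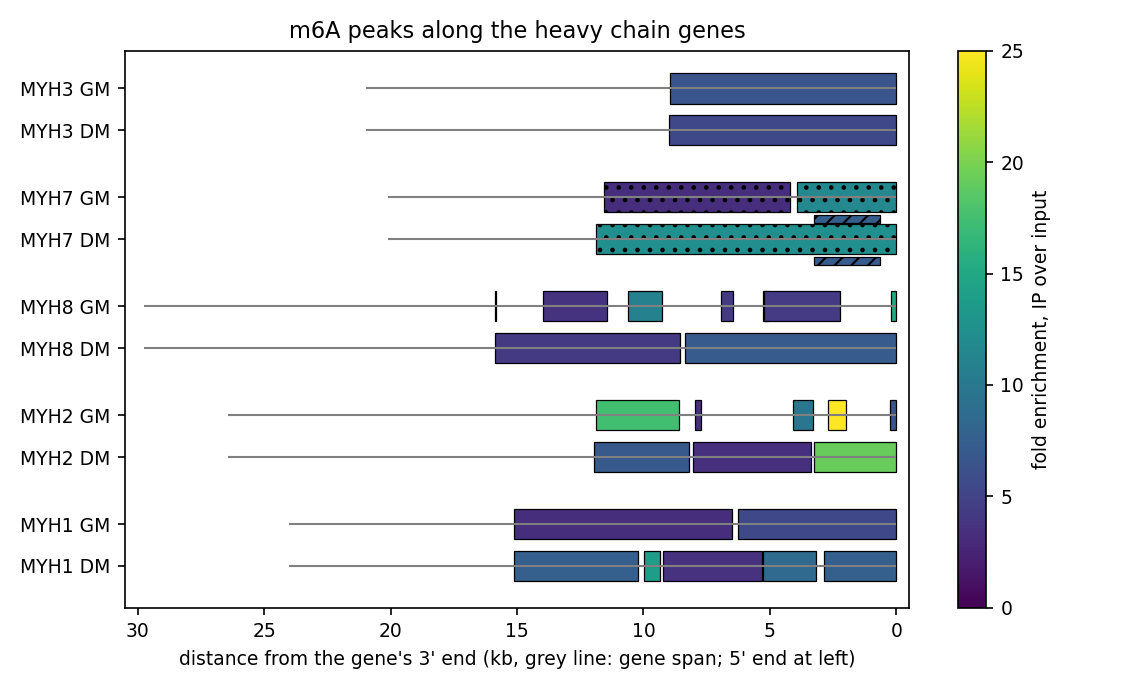
m6A peaks along each member, as distance from the 3′ end of the gene in kb, with the gene span as a grey line and GM above DM. Color gives the fold enrichment; dotted bars are entries in the span of MYH7 listed under other gene names, and hatched bars are the entry within its last exons, listed under an opposite-strand gene; peaks fill the 3′ part of each gene, and MYH3 has 1 bar in each state.

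The exon blocks of the peaks had many lengths in common. Inner blocks, those between the first and last block of a peak, follow the exons of the gene. Their lengths therefore describe gene structure and say nothing about m6A. Those of MYH7 were taken from the entries named for MIR208B. Inner blocks of 96, 125, 126, 127, 146, 166, 177, 184 and 243 bases occurred in all 5 members. Of the distinct inner lengths, 15 of 22 in MYH1, 13 of 14 in MYH2, 15 of 16 in MYH8 and 15 of 18 in MYH7 also occurred in MYH3. MYH3 had neighbouring blocks of 105 and 171 bases, lengths that also occurred in MYH1, MYH2 and MYH8. MYH7 lacked both lengths and had 1 of 276 bases, their sum. The other members had a block of 309 bases, and MYH3 had blocks of 45 and 264 bases with a gap of 1 base. The positions of blocks in the different genes were not aligned.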

How the data were processed

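The 3 GM and 3 DM input libraries gave the FPKM values, which the authors computed with StringTie after HISAT2 alignment to ARS-UCD1.2 and deposited. The deposited fold enrichment is a ratio of immunoprecipitated over input RNA from exomePeak on pooled libraries, and the deposited score is the authors' unadjusted p-value of each peak. All columns of sample values were used. The libraries were made strand-specific, and whether counting used the strand is not given in the sources used here.

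FPKM was tested on log2(FPKM + 1) with limma 3.58.1 in R 4.3.3 (variance trend, a mean of 0.5 FPKM or more, Benjamini-Hochberg over all tested genes), because no counts were used here. A call needed p below 0.05 before adjustment and more than 1.5-fold. Peaks were paired by at least 1 shared base of exon blocks, with the strand taken from the listed gene. Named genes are the members, genes within 100 kb of them, called genes of 6 lists, and the 3 nearest genes by distance. Marker genes and 3 uncalled list genes (UNC45B, HSP90AA1 and MYOG) were named after their values were seen. Members and lists were chosen with earlier results of these data known. Alternatives covered pseudocounts, filters, scaling, thresholds, a replicate block, each library left out and stricter peak rules. MYH7 peaks by position were added after seeing the data. The fit was tested on simulated data. No peak or protein sequence was used. A few genes that these rules name are counted but not reported here.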

Additional observations from a re-analysis of the deposited data

How the results depend on the processing

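The 4 tested members kept their direction in each alternative run. MYH7 was called in each except at a fold over 2, where its log2 fold change of 0.85 did not pass. Without a filter MYH1 could be tested, with a log2 fold change of 0.16 (limma adjusted p of 0.0811), and with a mean of at least 1 FPKM MYH2 was not tested. Leaving out each library gave 1.26 to 1.29 for MYH3, 0.71 to 1.09 for MYH7, 1.70 to 1.79 for MYH8 and 1.07 to 1.15 for MYH2. With a pseudocount of 0.1 MYH2 was 2.64 and MYH8 2.76. TPM scaling moved the median of all genes from -0.05 to 0.06 and the share of calls higher in DM from 41.3 to 54.5%, with 1060 genes called higher in place of 603. A fold over 2 called 507 genes, 232 higher and 275 lower, in place of 1461, 603 and 858, with 3 light chains and 3 transcription factors. Deviations from the group mean correlated at -0.0792, -0.123 and -0.208 between libraries of the same replicate number. With 3 libraries per group this cannot settle whether the numbers pair the samples. A replicate block (MYH7 adjusted p of 0.0045, limma) changed no member call. MYH9 changed sign under TPM (0.12), size factors (0.058) and without GM library 2 (0.0021) or DM library 3 (0.0031), ranging from -0.0176 to 0.0031 with 1 library left out. So did UNC45A (0.044) and TEAD4 (0.0032) under TPM, and MEF2D without GM library 1 (-0.0082) or 2 (-0.0032). At a false discovery rate under 0.001 the members kept 9 of 15 GM and 8 of 11 DM peaks, and an overlap of 50% gave 4 pairs in place of 2. The added pairs had a ratio of enrichment, DM over GM, of 0.768 in MYH2 and 2.28 in MYH1, which was listed at 0 FPKM in GM. Causes were not tested.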

Other observations

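MYH4, the type IIb heavy chain between MYH8 and MYH1, was listed at 0 FPKM in all GM libraries and in DM libraries 2 and 3. The GM list nevertheless held a MYH4 peak of 5865 exon bases in 39 blocks over the whole gene, with an enrichment of 34.3. The DM list held 2 MYH4 peaks, with enrichment of 14.5 and 4.97. By gene name MYH6 had 2 GM and 3 DM peaks, of enrichment 2.5 to 3.77 and 2.0 to 7.99. Entries filed under other genes also lay within MYH6, for CMTM5 (4.72 in GM and 7.1 in DM), listed on the opposite strand, and for MIR208A (3.19 in DM).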
